A study of Mus musculus with 12 samples.

Results

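The breakdown of the branched-chain amino acids leucine, isoleucine and valine was followed in mouse brown adipose tissue through 10 genes chosen by name from the pathway: Bcat2, Bckdha, Bckdhb, Dbt, Ivd, Mccc1, Mccc2, Auh, Hibadh and Acad8. All 10 were among the 24452 genes measured by RNA-seq, and all 10 were among the 12249 genes abundant enough to be tested. They were chosen by function and not by their values, although results of these data were already known when the list was drawn up.

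The tissue is the heat-producing fat of male C57BL/6J Bom mice, 12 weeks of age and housed at 30 °C. The ERRαγAd-/- mice carry floxed alleles of ERRα and ERRγ and a Cre recombinase under the adiponectin promoter, a design meant to delete both nuclear receptors in fat cells and not in the other cells of the depot. Their WT counterparts are littermates with the same floxed alleles and no Cre, so Cre without the deletion was not among the groups. Each genotype received either 1 mg/kg of CL316,243, a drug that activates the β3-adrenergic receptor, or the PBS vehicle, injected intraperitoneally once a day for 10 days. Brown fat was collected 24 h after dosing ended. The 4 groups are called ERRαγAd-/- CL, ERRαγAd-/- PBS, WT CL and WT PBS, each with 3 libraries. Whether the 3 libraries of a group come from separate mice is not stated in the labels, so the p-values reflect the spread among these libraries, which may be technical.

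As background, the first step of branched-chain amino acid breakdown is a reversible transamination, carried out in mitochondria by Bcat2. The resulting keto acids are then committed to oxidation by the branched-chain ketoacid dehydrogenase (BCKDH) complex, after which each amino acid has its own series of enzymes that ends in acetyl-CoA, acetoacetate or propionyl-CoA. Active brown fat is known to take up and oxidise these amino acids, and ERRα and ERRγ are known as activators of mitochondrial genes. In a whole tissue, fewer cells of a type and less RNA per cell cannot be told apart.

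Values are given as RPKM, reads scaled to gene length and library total, after the libraries were scaled to each other by the median of gene-wise ratios. Scaling matters here: on the RPKM scale as deposited the median tested gene was 0.53 (log2) higher in ERRαγAd-/- PBS than in WT PBS, and 0.63 higher in ERRαγAd-/- CL than in WT CL. The same shift was -0.26 for WT CL against WT PBS and -0.16 for ERRαγAd-/- CL against ERRαγAd-/- PBS. A gene is called higher or lower where limma's adjusted p, corrected over all 12249 tested genes by the Benjamini-Hochberg method, was under 0.05.

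The libraries held 12468001 to 12954186 reads in ERRαγAd-/- CL, 12822176 to 13263567 in ERRαγAd-/- PBS, 8979123 to 9559239 in WT CL and 8478310 to 9727167 in WT PBS. Esrra, the gene of ERRα, had 5.25 to 8.89 RPKM in the 6 ERRαγAd-/- libraries and 41.6 to 83.1 in the 6 WT libraries. Esrrg, the gene of ERRγ, had 6.36 to 8.11 RPKM in ERRαγAd-/- CL and 2.29 to 4.71 in ERRαγAd-/- PBS, against 5.61 to 8.12 in WT CL and 4.40 to 8.26 in WT PBS, so the genotypes overlapped under both treatments. It differed by 0.03 between ERRαγAd-/- CL and WT CL (uncalled, and 0.69 and called higher on the deposited scale). Between ERRαγAd-/- PBS and WT PBS it was lower by the test, at -0.87 (-0.34 and uncalled on the deposited scale). The labels do not say which exons are floxed, so a value over the whole gene is a limited check. The 7 brown adipocyte markers (Ucp1 and others) were all detected. Their summed RPKM was 1193 to 1524 in ERRαγAd-/- CL, 389 to 678 in ERRαγAd-/- PBS, 6093 to 7842 in WT CL and 2461 to 4184 in WT PBS. The 7 general adipocyte markers summed to 19574 to 19850, 11806 to 15958, 16708 to 17824 and 11057 to 16108 RPKM in the same order of groups. Skeletal muscle transcripts differed widely between libraries: 18 muscle markers summed to 253, 905 and 1989 RPKM in ERRαγAd-/- CL, to 493, 134 and 3833 in ERRαγAd-/- PBS, to 109, 17.8 and 463 in WT CL and to 359.0, 13.6 and 19.4 in WT PBS (replicates 1, 2 and 3). Replicate 3 of ERRαγAd-/- PBS and of ERRαγAd-/- CL stood highest, and counts below are also given without these 2 libraries. The median muscle marker was 2.95 (log2) higher in ERRαγAd-/- CL than in WT CL and 3.59 higher in ERRαγAd-/- PBS than in WT PBS. Of the 18, 1 (Eno3, under agonist) was called higher in ERRαγAd-/- on the median-ratio scale. Of all tested genes, 19.8% were called higher there under agonist and 15.8% under vehicle. On the deposited scale 10 of the 18 were called higher under agonist and 15 under vehicle, where 70.5% and 66.3% of all tested genes were called higher. Of the 6 macrophage markers, 6 were lower in WT CL than in WT PBS, beside 12.6% of all tested genes. Their sum was 97.8 to 129 RPKM in WT CL and 174 to 371 in WT PBS. In ERRαγAd-/- CL 2 were higher than in WT CL, beside 19.8% of all tested genes (5 on the deposited scale). Of the 5 endothelial markers, 2 were lower in ERRαγAd-/- PBS than in WT PBS, beside 18.4% of all tested genes. In ERRαγAd-/- CL 1 was lower than in WT CL, beside 21.6%. On the deposited scale 0 were lower under either treatment and 3 were higher under agonist. The share of 70.5% of all tested genes higher stands beside these 3 and the 5 macrophage markers as well. The part of muscle, macrophage or endothelial RNA in the results below was not tested, apart from the counts without the 2 libraries and a fit with muscle level as a covariate.

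With the agonist 9 of the 10 members were called higher in each genotype, all but Mccc2 in ERRαγAd-/- and all but Auh in WT, and on the median-ratio scale 8 were called between genotypes under agonist and 4 under vehicle. In WT, 9 of the 10 members were higher in WT CL than in WT PBS, where 18.0% of all tested genes were called higher, 12.6% lower and 30.5% in either direction. The groups did not overlap for 9 members, beside 43.0% of all tested genes. The member left uncalled was Auh, and the median member difference was 0.87 (log2) beside 0.012 over all tested genes. In ERRαγAd-/-, 9 of 10 were higher in ERRαγAd-/- CL than in ERRαγAd-/- PBS, where 6.68% of all tested genes were called higher, 3.62% lower and 10.3% in either direction. The groups did not overlap for 10 members, beside 31.8% of all tested genes. There Mccc2 was the uncalled member, and the median member difference was 0.61 beside 0.021 over all tested genes. None of the 10 was called lower with the agonist by limma on the median-ratio scale in either genotype. There 0 reached an unadjusted p under 0.05 in that direction. The quasi-likelihood test of edgeR on reads also called 0 lower, with 1 at an unadjusted p under 0.05 in WT. On the deposited scale and with quantile normalization limma called Auh lower in WT. Without the 2 libraries highest in muscle transcripts the ERRαγAd-/- count was 2 of 10 (Bckdha and Hibadh) with a median of 0.57. The WT count stayed 9 of 10. In that fit 9 of the 10 in ERRαγAd-/- had an unadjusted p under 0.05 by limma, and fewer of all tested genes were called than in the main fit. Without ERRαγAd-/- PBS replicate 1 alone the ERRαγAd-/- count was 4 of 10. With single libraries left out, 522 to 1664 of all tested genes were called for the ERRαγAd-/- response, beside 1261 in the main fit.

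Under agonist, 8 of the 10 members were lower in ERRαγAd-/- CL than in WT CL, against 21.6% of all tested genes called lower, 19.8% higher and 41.5% in either direction. The groups did not overlap for 9 members, beside 54.6% of all tested genes. Their median difference was -0.61, beside 0.012 over all tested genes. Under vehicle, 4 of 10 (Auh, Acad8, Bckdha and Hibadh) were lower in ERRαγAd-/- PBS than in WT PBS, against 18.4% of all tested genes called lower and 15.8% higher. The groups did not overlap for the same 4, beside 45.0% of all tested genes. The median difference there was -0.19, beside 0.0055 over all tested genes, and with 34.2% of all genes called in either direction the vehicle count is close to the background. Without the 2 libraries highest in muscle transcripts these counts were 6 (Bckdhb and Ivd lost, as they were with muscle level as a covariate) and 4. None of the 10 was called higher in ERRαγAd-/- by limma on the median-ratio scale under either treatment. By limma 1 member had an unadjusted p under 0.05 in each (Bcat2 under agonist, Mccc1 under vehicle). The edgeR test also called 0 higher, with 1 at an unadjusted p under 0.05 in each.

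These genotype counts depend on the scale. On the deposited RPKM scale 3 members were higher and 3 lower in ERRαγAd-/- CL than in WT CL, where 70.5% of all tested genes were higher, 6.62% lower and 77.2% either. In ERRαγAd-/- PBS against WT PBS 6 members were higher and 2 lower on that scale, where 66.3% of all tested genes were higher, 6.22% lower and 72.5% either. The members' median was then 0.11 under agonist and 0.39 under vehicle, below the shift of the median gene in both. The agonist responses kept their direction on that scale, with 8 higher and 1 lower in WT (7.2% and 38.1% of all tested genes, 45.3% in all) and 6 higher and 0 lower in ERRαγAd-/- (3.23% and 13.7% of all tested genes, 16.9% in all). Genotype differences below are therefore relative to the typical gene of these libraries.

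**Figure D1:**
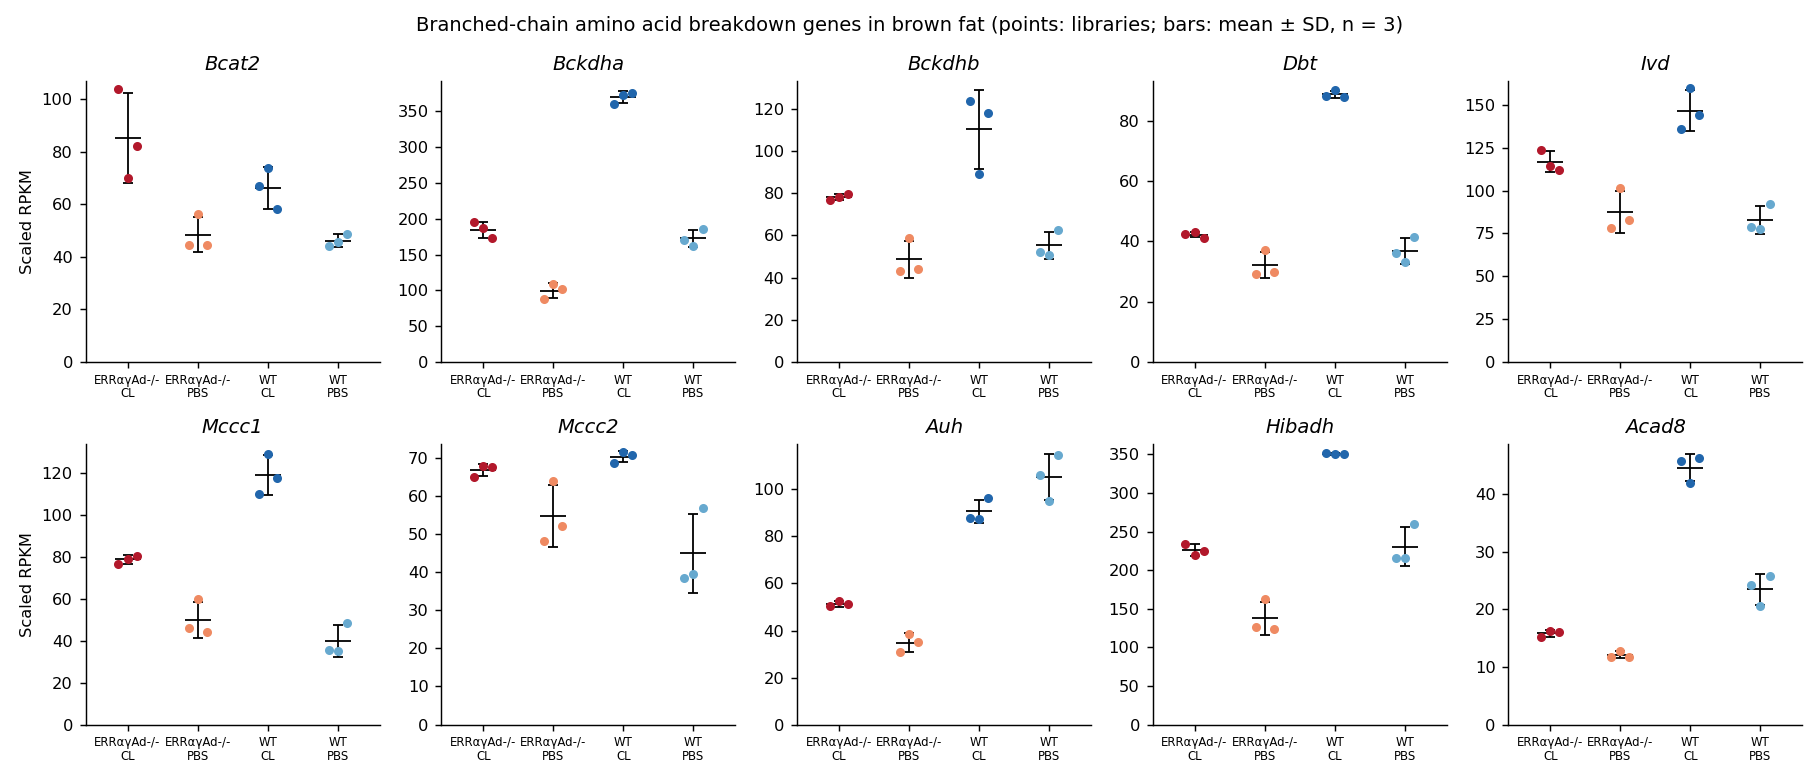
Level of the 10 branched-chain amino acid genes in each library, as median-ratio scaled RPKM on a linear axis. Each point is 1 library, the bars mark the mean of 3, and the groups run ERRαγAd-/- CL, ERRαγAd-/- PBS, WT CL and WT PBS. The 3 ERRαγAd-/- CL libraries lie below the 3 WT CL libraries for 9 of the 10 genes, Bcat2 being the exception.

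The members differed in abundance. Averaged over the 12 libraries, Hibadh (236 RPKM) and Bckdha (207 RPKM) were highest, Ivd followed at 108, and Bckdhb (73.1), Mccc1 (72.0), Auh (70.5), Bcat2 (61.6), Mccc2 (59.2) and Dbt (50.04) came next. The order differed by group: Bckdha (mean 369.7) stood above Hibadh (351) in WT CL without overlap, and Auh (105) stood above Ivd (82.9) in WT PBS. Acad8 was lowest at 24.0 RPKM and still stood at the 82nd percentile of tested genes, with 753 to 1607 reads per library. Hibadh and Bckdha overlapped in their range over libraries, as did each pair of neighbours in this order down to Dbt and Acad8. Reads per library behind the other 9 members ran from 929 to 8247.

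Bcat2, the mitochondrial aminotransferase that opens the pathway, rose with the agonist in both genotypes and was not called between genotypes. It had 104, 70.1 and 82.4 RPKM in ERRαγAd-/- CL, 44.6, 56.2 and 44.5 in ERRαγAd-/- PBS, 67.1, 73.8 and 58.1 in WT CL and 44.3, 45.5 and 48.9 in WT PBS. Both treated groups lay above their vehicle groups without overlap, and the genotypes overlapped under both treatments. The agonist response was 0.80 ± 0.15 (log2 difference ± SE, limma adjusted p = 0.00612) in ERRαγAd-/- and 0.51 ± 0.15 (adjusted p = 0.0196) in WT. The WT response was not called without WT PBS replicate 1 or 2 or WT CL replicate 1 or 2 (adjusted p 0.0556 to 0.0797), nor on the deposited scale (0.19, adjusted p = 0.297). Bcat2 differed by 0.35 ± 0.15 between ERRαγAd-/- CL and WT CL (adjusted p = 0.0719, and 0.023 without ERRαγAd-/- CL replicate 2). The difference between ERRαγAd-/- PBS and WT PBS was 0.06 ± 0.15 (adjusted p = 0.787), or -0.05 without ERRαγAd-/- PBS replicate 2. With the deposited values those 2 differences were 1.06 and 0.65, both called higher. The gene lies at chr7:45570153-45589711 on the plus strand of GRCm38, and 15.9% of its exon bases are shared with the antisense gene 0610005C13Rik, which had at most 0.22 RPKM in any library.

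Of the 3 BCKDH members, 3 were called lower in ERRαγAd-/- CL than in WT CL, beside 21.6% of all tested genes. The difference of Bckdhb turned positive on the deposited scale. In ERRαγAd-/- PBS 1, Bckdha, was called lower than in WT PBS, beside 18.4% of all tested genes lower and 34.2% in either direction. Bckdha encodes the alpha subunit of the BCKDH decarboxylase, which is also the site of regulatory phosphorylation. Bckdha had 195, 187 and 173 RPKM in ERRαγAd-/- CL and 87.7, 108 and 102 in ERRαγAd-/- PBS, against 360.4, 373 and 375 in WT CL and 169.7, 162 and 186 in WT PBS. No library of one genotype reached the other under the same treatment, and the ERRαγAd-/- CL libraries overlapped those of WT PBS. Bckdha was lower in ERRαγAd-/- CL than in WT CL (log2 difference -1.0 ± 0.10, limma adjusted p = 8.77e-06, a mean 0.50 times that of WT CL) and in ERRαγAd-/- PBS than in WT PBS (-0.80 ± 0.10, adjusted p = 7.77e-05). With the deposited values these were -0.28 (adjusted p = 0.011) and -0.21 (adjusted p = 0.0501). Its agonist response was 0.90 ± 0.10 in ERRαγAd-/- (adjusted p = 0.000477) and 1.10 ± 0.10 in WT (adjusted p = 2.12e-05), and the difference between the responses, -0.20 ± 0.14, was not called (adjusted p = 0.508). Of the exon bases of Bckdha (chr7:25629946-25658981, minus strand), 61.7% are shared with the antisense gene B3gnt8. Whether the authors counted by strand is not given in the sources used here, and B3gnt8 itself had 0.32 to 1.29 RPKM.

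Bckdhb, the beta subunit of the same decarboxylase, had 76.7, 78.2 and 79.8 RPKM in ERRαγAd-/- CL and 43.1, 58.8 and 44.0 in ERRαγAd-/- PBS, against 124, 89.1 and 118 in WT CL and 52.0, 50.8 and 62.8 in WT PBS. The genotypes were apart under agonist and overlapped under vehicle. Bckdhb was lower in ERRαγAd-/- CL than in WT CL (log2 difference -0.48 ± 0.15, limma adjusted p = 0.0205), a difference that turned to 0.24 on the deposited scale. That call was lost without WT CL replicate 1 or 3 or ERRαγAd-/- CL replicate 1 or 2 (adjusted p 0.0511 to 0.0862), and also without the 2 libraries highest in muscle transcripts (adjusted p = 0.0531). In ERRαγAd-/- PBS against WT PBS the difference was -0.19 ± 0.15 (adjusted p = 0.343), and 0.40 and called higher on the deposited scale. The agonist response was 0.69 ± 0.15 in ERRαγAd-/- (adjusted p = 0.0131, and 0.0613 without ERRαγAd-/- PBS replicate 1) and 0.98 ± 0.15 in WT (adjusted p = 0.000512).

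Dbt, the transacylase that forms the core of the complex, responded less to the agonist in ERRαγAd-/- than in WT. Dbt had 42.3, 43.1 and 41.3 RPKM in ERRαγAd-/- CL and 29.3, 37.3 and 30.0 in ERRαγAd-/- PBS, against 88.3, 90.1 and 88.1 in WT CL and 36.1, 33.1 and 41.6 in WT PBS. The 3 WT CL libraries lay far above all others, while the genotypes overlapped under vehicle. The response to the agonist was 0.39 ± 0.10 in ERRαγAd-/- (limma adjusted p = 0.0351) and 1.26 ± 0.10 in WT (adjusted p = 1.22e-05), and the difference between these responses was -0.87 ± 0.15 (adjusted p = 0.00875). That difference was called with each library left out in turn, on the deposited scale (-0.74, adjusted p = 0.00763) and also without the 2 libraries highest in muscle transcripts (adjusted p = 0.0411). The response within ERRαγAd-/- was less secure: it was not called by edgeR (adjusted p = 0.0622), nor on the deposited scale, nor without any of ERRαγAd-/- CL replicate 1, 2 or 3, ERRαγAd-/- PBS replicate 1 or 3 or WT CL replicate 3 (adjusted p 0.0544 to 0.134). Between genotypes, Dbt was lower in ERRαγAd-/- CL than in WT CL (log2 difference -1.06 ± 0.10, adjusted p = 6.95e-06), and called lower on the deposited scale too (-0.35). It differed by -0.20 ± 0.10 in ERRαγAd-/- PBS against WT PBS (adjusted p = 0.168, and 0.0349 without ERRαγAd-/- PBS replicate 2), a value that turned to 0.39 and was called higher on the deposited scale.

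Ratios of 2 genes within a library do not depend on the scale between libraries, and are given as a description. Bckdha to Bckdhb was 2.37 ± 0.19 in ERRαγAd-/- CL and 2.07 ± 0.24 in ERRαγAd-/- PBS, against 3.43 ± 0.67 in WT CL and 3.14 ± 0.16 in WT PBS (mean ± SD, n = 3 each). Every ERRαγAd-/- library, at 2.54 or below, had less Bckdha per Bckdhb than every WT library, at 2.92 or above. Bckdha to Dbt was 4.38 ± 0.21 in ERRαγAd-/- CL, 3.10 ± 0.26 in ERRαγAd-/- PBS, 4.16 ± 0.09 in WT CL and 4.69 ± 0.22 in WT PBS, so that the ERRαγAd-/- PBS libraries (2.91 to 3.40) alone stood below the rest (4.08 to 4.91).

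**Figure D2:**
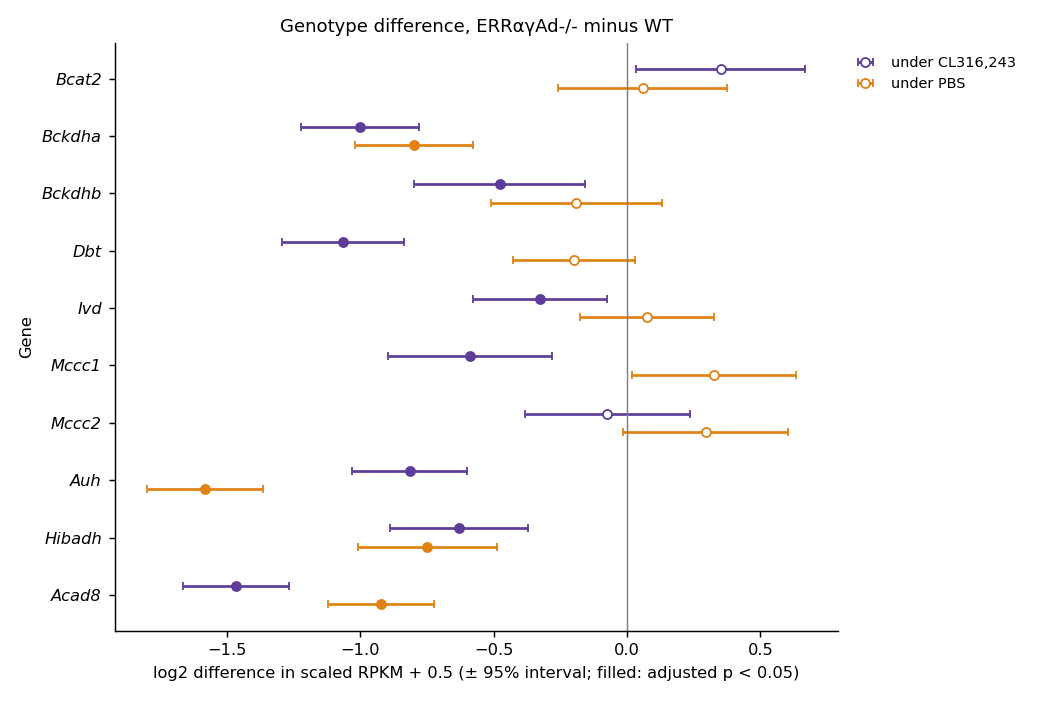
Genotype difference of the 10 members, ERRαγAd-/- minus WT, as the log2 difference in scaled RPKM with its 95% interval, under CL316,243 and under PBS. Filled points passed the adjusted p threshold of 0.05: 8 members under CL316,243 and 4 under PBS, all below 0. On the deposited RPKM scale every value lies higher, and the negative values of Bckdhb, Ivd, Mccc1, Mccc2 and Hibadh under CL316,243 and of Bckdhb and Dbt under PBS turn positive.

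Leucine has its own enzymes after BCKDH, beginning with Ivd, isovaleryl-CoA dehydrogenase. Ivd had 124, 114 and 112 RPKM in ERRαγAd-/- CL and 78.0, 102 and 83.0 in ERRαγAd-/- PBS, against 136, 159.7 and 144 in WT CL and 78.9, 77.5 and 92.3 in WT PBS. The treated groups did not overlap, by a narrow margin, and the vehicle groups did. Ivd was lower in ERRαγAd-/- CL than in WT CL (log2 difference -0.33 ± 0.11, limma adjusted p = 0.0391), but 0.39 and called higher on the deposited scale. The call was lost without WT CL replicate 2 or 3 or ERRαγAd-/- CL replicate 2 or 3 (adjusted p 0.0791 to 0.137). Under vehicle the difference was 0.07 ± 0.11 (adjusted p = 0.653, and -0.04 without ERRαγAd-/- PBS replicate 2). It was 0.66 on the deposited scale (adjusted p = 0.000108) and 0.37 with quantile normalization (adjusted p = 0.00341), both called higher. The agonist response was 0.42 ± 0.11 in ERRαγAd-/- (adjusted p = 0.0384) and 0.82 ± 0.11 in WT (adjusted p = 0.000338). In ERRαγAd-/- it was not called by edgeR (adjusted p = 0.0611), nor on the deposited scale (0.22, adjusted p = 0.14) or with quantile normalization (0.25, adjusted p = 0.0656), nor without any of the same 6 libraries as for Dbt (adjusted p 0.0593 to 0.146).

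Methylcrotonyl-CoA carboxylase, the biotin enzyme of the next leucine step, has an alpha subunit, Mccc1, and a beta subunit, Mccc2. Mccc1 had 76.7, 79.1 and 80.7 RPKM in ERRαγAd-/- CL and 45.9, 59.9 and 44.2 in ERRαγAd-/- PBS, against 110.2, 129 and 118 in WT CL and 35.8, 35.0 and 48.7 in WT PBS. Mccc1 rose more than any other member in WT, by 1.58 ± 0.14 (limma adjusted p = 1.67e-05, a mean 2.99 times that of WT PBS). In ERRαγAd-/- the response was 0.67 ± 0.14 (adjusted p = 0.0131, and 0.0597 without ERRαγAd-/- PBS replicate 1). The difference between the responses was -0.92 ± 0.20 (adjusted p = 0.0282). It was not called without any of WT PBS replicate 1 or 2, WT CL replicate 2 or 3, or ERRαγAd-/- CL replicate 1, 2 or 3 (adjusted p 0.0544 to 0.0717). Mccc1 was lower in ERRαγAd-/- CL than in WT CL (log2 difference -0.59 ± 0.14, adjusted p = 0.00522), and 0.13 and uncalled on the deposited scale. In ERRαγAd-/- PBS against WT PBS it differed by 0.33 ± 0.14 (adjusted p = 0.092, and 0.0115 without WT PBS replicate 3). It was called higher there on the deposited scale (0.91, adjusted p = 3.83e-05), with quantile normalization (0.52, adjusted p = 0.00194) and with muscle level as a covariate (0.47, adjusted p = 0.0468).

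Mccc2 had 65.1, 67.8 and 67.5 RPKM in ERRαγAd-/- CL and 48.2, 64.0 and 52.1 in ERRαγAd-/- PBS, against 68.6, 71.6 and 70.7 in WT CL and 38.5, 39.4 and 56.8 in WT PBS. The treated groups lay side by side without overlap, yet only -0.07 ± 0.14 apart (95% interval -0.38 to 0.24, limma adjusted p = 0.716). With the deposited values that difference was 0.64 and called higher. Under vehicle the difference was 0.30 ± 0.14 (adjusted p = 0.127, and 0.0051 without WT PBS replicate 3), and it was called higher on the deposited scale (0.88, adjusted p = 4.32e-05) and with quantile normalization (0.49, adjusted p = 0.00192). The response was 0.29 ± 0.14 in ERRαγAd-/- (adjusted p = 0.222) and 0.66 ± 0.14 in WT (adjusted p = 0.00443), and the 2 responses differed by -0.37 ± 0.20 (adjusted p = 0.356, and 0.0419 without WT PBS replicate 3). The ratio of Mccc1 to Mccc2, which no scaling between libraries alters, was 1.18 ± 0.015 in ERRαγAd-/- CL and 0.912 ± 0.057 in ERRαγAd-/- PBS, against 1.69 ± 0.10 in WT CL and 0.892 ± 0.036 in WT PBS (mean ± SD, n = 3 each). It was higher in the agonist libraries of both genotypes than in any vehicle library, and the 3 WT CL libraries (1.61 to 1.81) lay above the 3 ERRαγAd-/- CL libraries (1.17 to 1.20).

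Auh, the methylglutaconyl-CoA hydratase that follows in leucine breakdown and that also binds AU-rich RNA, was the single member called for a larger response to the agonist in ERRαγAd-/- than in WT. Auh had 50.3, 52.4 and 51.1 RPKM in ERRαγAd-/- CL and 30.9, 38.6 and 35.2 in ERRαγAd-/- PBS, against 88.0, 87.5 and 96.4 in WT CL and 106, 94.9 and 115 in WT PBS. It was the member with the largest genotype difference under vehicle, -1.58 ± 0.10 (limma adjusted p = 2.28e-07, a mean 0.331 times that of WT PBS), and that difference was -0.995 and called on the deposited scale. Under agonist the difference was -0.81 ± 0.10 (adjusted p = 3.89e-05), and -0.10 and uncalled on the deposited scale. The response was 0.56 ± 0.10 in ERRαγAd-/- (adjusted p = 0.00578) and -0.21 ± 0.10 in WT, where the groups overlapped and the difference was not called (adjusted p = 0.126). It was called lower on the deposited scale (-0.53, adjusted p = 0.000487) and with quantile normalization (-0.40, adjusted p = 0.00297). The responses differed by 0.77 ± 0.14 (adjusted p = 0.0118), the single positive difference among the 4 members called. It was called with each library left out in turn, and not without the 2 libraries highest in muscle transcripts together (0.78, adjusted p = 0.0591).

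**Figure D3:**
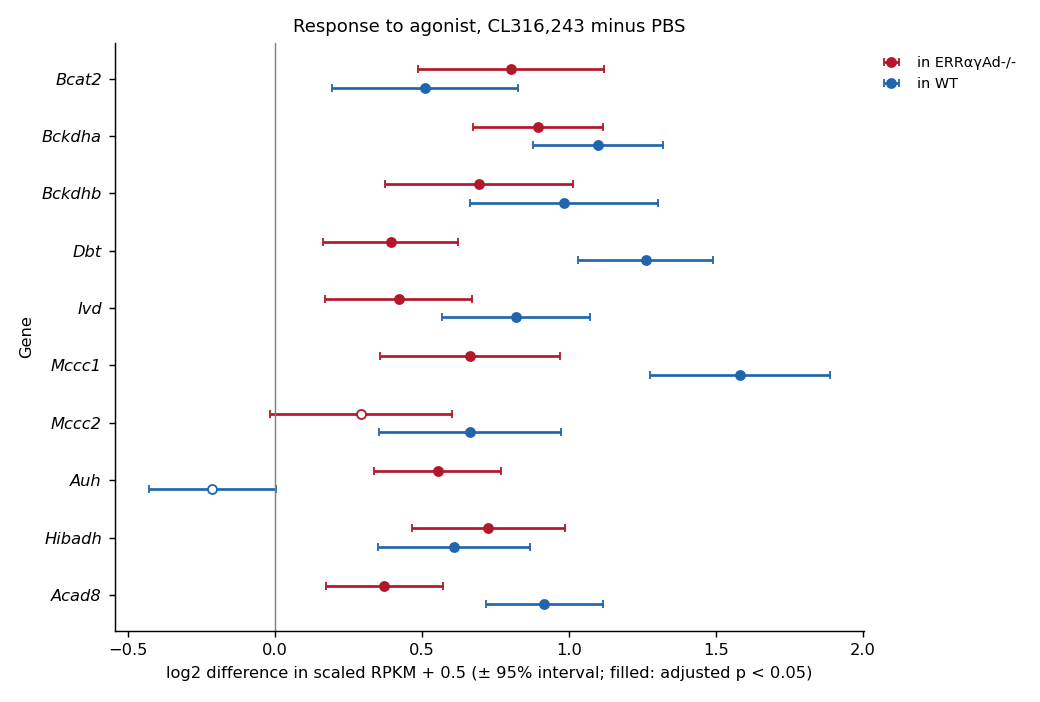
Response to the agonist of the 10 members, CL316,243 minus PBS, as the log2 difference in scaled RPKM with its 95% interval, in ERRαγAd-/- and in WT. Filled points passed the adjusted p threshold of 0.05. Dbt and Mccc1 rose less in ERRαγAd-/- (0.39 and 0.67) than in WT (1.26 and 1.58), and Auh is the gene whose estimates lie on opposite sides of 0.

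Valine breakdown was represented by Acad8, isobutyryl-CoA dehydrogenase, and Hibadh, hydroxyisobutyrate dehydrogenase. Acad8 had 15.1, 16.3 and 15.98 RPKM in ERRαγAd-/- CL and 11.7, 12.8 and 11.7 in ERRαγAd-/- PBS, against 45.6, 41.9 and 46.2 in WT CL and 24.1, 20.5 and 25.7 in WT PBS. Every ERRαγAd-/- library lay below every WT library, whatever the treatment. Acad8 was lower in ERRαγAd-/- CL than in WT CL (log2 difference -1.47 ± 0.09, limma adjusted p = 1.42e-07, a mean 0.354 times that of WT CL) and in ERRαγAd-/- PBS than in WT PBS (-0.92 ± 0.09, adjusted p = 1e-05). Both were also called lower on the deposited scale, at -0.76 and -0.35. The response was 0.37 ± 0.09 in ERRαγAd-/- (adjusted p = 0.0248) and 0.92 ± 0.09 in WT (adjusted p = 3.42e-05). In ERRαγAd-/- it was not called without ERRαγAd-/- PBS replicate 1 or 3 or ERRαγAd-/- CL replicate 2 or 3 (adjusted p 0.0737 to 0.0905), nor on the deposited scale (0.18, adjusted p = 0.138). The responses differed by -0.54 ± 0.13 (adjusted p = 0.0402), a call at the edge of the threshold that was lost without any library other than WT PBS replicate 3 (adjusted p 0.0539 to 0.102) and on the deposited scale (adjusted p = 0.0595).

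Hibadh, the most abundant member averaged over the 12 libraries, had 234, 219.6 and 225 RPKM in ERRαγAd-/- CL and 126, 163 and 124 in ERRαγAd-/- PBS, against 352, 349.8 and 350.0 in WT CL and 216, 216 and 259.8 in WT PBS. The genotypes were apart under both treatments, and the ERRαγAd-/- CL libraries lay within the range of WT PBS. Hibadh was lower in ERRαγAd-/- CL than in WT CL (log2 difference -0.63 ± 0.12, limma adjusted p = 0.00112) and in ERRαγAd-/- PBS than in WT PBS (-0.75 ± 0.12, adjusted p = 0.000439). Neither was called on the deposited scale, and the values were 0.09 and -0.16. The response was 0.73 ± 0.12 in ERRαγAd-/- (adjusted p = 0.00369) and 0.61 ± 0.12 in WT (adjusted p = 0.00264), with a difference between the responses of 0.12 (95% interval -0.25 to 0.48, adjusted p = 0.784).

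Across the 10 members the response to the agonist thus differed by genotype for 4, where 3.9% of all tested genes were called: Dbt, Mccc1 and Acad8 with a smaller response in ERRαγAd-/- (2.02% of all tested genes) and Auh with a larger one (1.89%). With the deposited values 3 were called, Dbt and Mccc1 (1.26% of all tested genes) and Auh (3.88%), where 5.14% of all tested genes were called. Only Dbt was called without the 2 libraries highest in muscle transcripts. The other 6 members had differences between -0.40 and 0.29 that were not called. That does not show equal responses, since the intervals are wide: for Ivd it ran from -0.75 to -0.04 and for Bckdhb from -0.74 to 0.16.

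The start sites are shown of Acad8, the member called lower on both scales under both treatments, of Auh, the member with the largest vehicle difference, and of Hibadh, the single member with a motif match. RefSeq gives a window of 250 bases before and 50 after the start for 9 of the 10 members, 11 windows in all, with none used for Dbt. Coordinates are on GRCm38.p6 and all 3 genes lie on the minus strand. Sequences run 5′ to 3′ on the strand of the gene, the single capital marks the first transcribed base, and the run of capitals in Hibadh marks the match.
Acad8, chr9:26999500-26999799: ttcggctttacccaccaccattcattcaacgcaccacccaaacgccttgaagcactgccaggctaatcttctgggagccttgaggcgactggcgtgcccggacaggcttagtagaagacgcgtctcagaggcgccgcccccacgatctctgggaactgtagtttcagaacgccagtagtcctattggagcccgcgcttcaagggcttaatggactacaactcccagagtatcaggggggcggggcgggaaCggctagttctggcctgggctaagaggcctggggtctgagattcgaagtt
Auh, chr13:52929628-52929927: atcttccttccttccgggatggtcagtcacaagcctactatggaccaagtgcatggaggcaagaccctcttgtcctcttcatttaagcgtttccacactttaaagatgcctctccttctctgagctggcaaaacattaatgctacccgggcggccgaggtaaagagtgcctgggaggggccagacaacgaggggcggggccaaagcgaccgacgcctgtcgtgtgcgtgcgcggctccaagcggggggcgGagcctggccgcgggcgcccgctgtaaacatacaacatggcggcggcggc
Hibadh, chr6:52640251-52640550: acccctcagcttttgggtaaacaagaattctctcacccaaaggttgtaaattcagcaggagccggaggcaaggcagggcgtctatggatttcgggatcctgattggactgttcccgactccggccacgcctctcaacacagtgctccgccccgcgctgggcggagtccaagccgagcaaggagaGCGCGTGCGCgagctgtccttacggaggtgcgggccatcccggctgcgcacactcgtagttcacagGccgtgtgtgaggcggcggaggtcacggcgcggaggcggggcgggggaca
The windows were searched on both strands for the core ERR motif AAGGTCA, its extended form TNAAGGTCA (which contains the core), the cAMP response element TGACGTCA and the NRF1 motif (GCGCA, any base, GCGC). Among all 32851 windows 4.72%, 1.28%, 1.79% and 4.60% held these, in that order. None of the 11 member windows held AAGGTCA, TNAAGGTCA or TGACGTCA, which says only that these letters are not in these windows. The NRF1 motif matched once, on the reverse strand in Hibadh, as GCGCGTGCGC with its first base 66 bases before the start.

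The rest of the pathway was described through 30 genes listed by function, of which 28 were tested (Slc7a5 and Bcat1 were too low). Between ERRαγAd-/- CL and WT CL 17 of 28 were lower and 5 higher, with a median of -0.57, where 21.6% of all tested genes were lower and 19.8% higher. Between ERRαγAd-/- PBS and WT PBS 15 were lower and 3 higher, with a median of -0.35, beside 18.4% and 15.8% of all tested genes. With the agonist 14 rose and 0 fell in ERRαγAd-/- (median 0.44; 0 fell at an unadjusted p under 0.05 and 0 by edgeR), beside 6.68% and 3.62% of all tested genes. In WT 19 rose and 3 fell (median 0.53), beside 18.0% and 12.6%. Without the 2 libraries highest in muscle transcripts the count of 14 was 0, with 18 at an unadjusted p under 0.05, and the other counts were 17 lower and 4 higher, 15 lower and 3 higher, and 17 risen and 2 fallen. On the deposited scale 12 were higher and 6 lower in ERRαγAd-/- CL than in WT CL, where 70.5% of all tested genes were higher and 6.62% lower. In ERRαγAd-/- PBS against WT PBS 14 were higher and 6 lower on that scale, where 66.3% of all tested genes were higher and 6.22% lower. The agonist counts there were 10 risen and 0 fallen in ERRαγAd-/- (3.23% and 13.7% of all tested genes) and 12 risen and 5 fallen in WT (7.2% and 38.1%).

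BCKDH shares its last enzyme, dihydrolipoamide dehydrogenase, with other ketoacid dehydrogenases, and the gene for it, Dld, had the most negative genotype difference of the 28. Dld had 113, 117 and 134 RPKM in ERRαγAd-/- CL and 76.7, 101 and 75.1 in ERRαγAd-/- PBS, against 623, 647 and 645 in WT CL and 306, 275 and 372 in WT PBS. The difference was -2.39 ± 0.14 under agonist (limma adjusted p = 8.29e-08) and -1.91 ± 0.14 under vehicle (adjusted p = 8.05e-07), and it was called lower on the deposited scale too (-1.68 and -1.32). The complex is switched off by the kinase Bckdk and on by the phosphatase Ppm1k. Bckdk had 26.3, 26.1 and 25.0 RPKM in ERRαγAd-/- CL and 23.3, 26.4 and 26.3 in ERRαγAd-/- PBS, against 37.3, 41.2 and 38.8 in WT CL and 31.7, 28.4 and 35.3 in WT PBS. It rose with the agonist in WT (0.30 ± 0.09, adjusted p = 0.0269, and -0.02 on the deposited scale) and was 0.03 ± 0.09 apart in ERRαγAd-/- (adjusted p = 0.879). Ppm1k had 5.03, 5.65 and 7.42 RPKM in ERRαγAd-/- CL and 3.82, 3.86 and 3.59 in ERRαγAd-/- PBS, against 11.5, 12.1 and 11.0 in WT CL and 4.90, 5.84 and 5.18 in WT PBS. It rose with the agonist in both, by 0.60 ± 0.12 in ERRαγAd-/- (adjusted p = 0.011) and 1.05 ± 0.12 in WT (adjusted p = 0.000101). Between genotypes Bckdk was lower in ERRαγAd-/-, by the test, at -0.59 under agonist and -0.32 under vehicle, but at 0.12 (uncalled) and 0.26 (called higher) on the deposited scale. Ppm1k was likewise called lower, at -0.89 and -0.44, and uncalled on the deposited scale at -0.22 and 0.09. The ratio of Bckdk to Ppm1k was 4.41 ± 0.95 in ERRαγAd-/- CL and 6.75 ± 0.61 in ERRαγAd-/- PBS, against 3.40 ± 0.14 in WT CL and 6.05 ± 1.04 in WT PBS (mean ± SD, n = 3 each). The agonist libraries were low in both genotypes, although the highest ERRαγAd-/- CL library (5.23) passed the lowest WT PBS library (4.87).

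**Figure D4:**
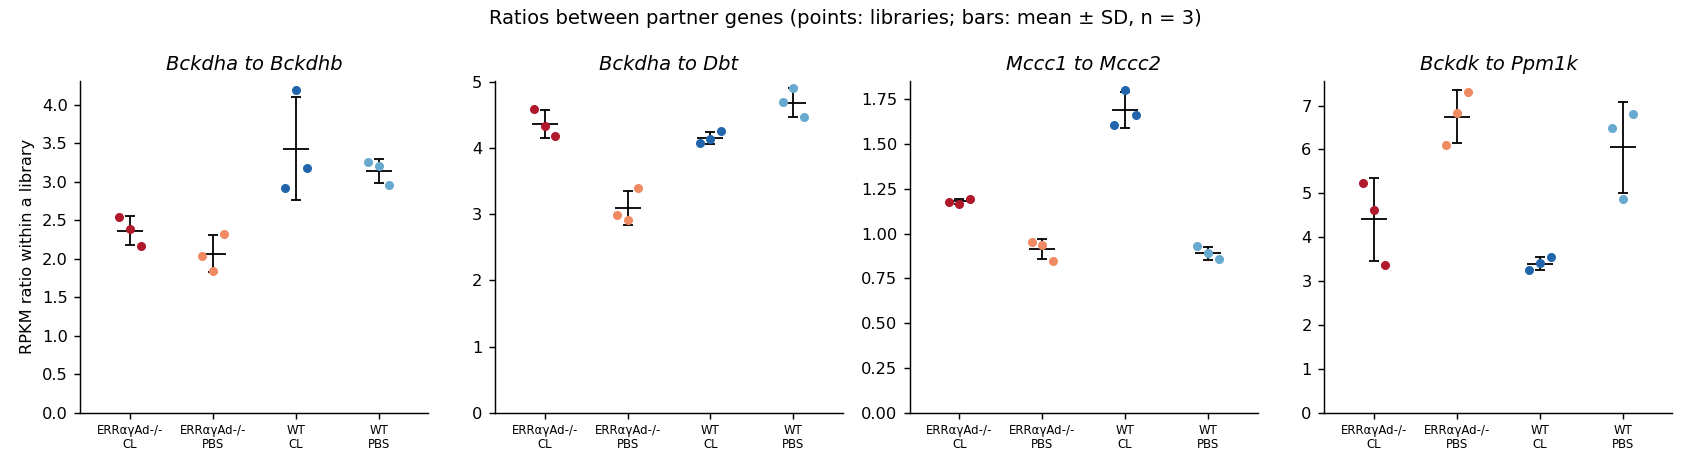
Ratio of RPKM of 2 genes within each library, which does not depend on scaling between libraries, for Bckdha to Bckdhb, Bckdha to Dbt, Mccc1 to Mccc2 and Bckdk to Ppm1k. Points are libraries and bars the mean of 3 per group. Mccc1 to Mccc2 is highest in WT CL (mean 1.69) and next in ERRαγAd-/- CL (1.18), with both vehicle groups near 0.9.

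Propionyl-CoA, the end product of valine and part of isoleucine, is carboxylated by Pcca and Pccb and then turned into succinyl-CoA with the epimerase Mcee, the mutase Mut and cobalamin handling by Mmaa, Mmab and Mmadhc. All 7 of these genes were lower in ERRαγAd-/- CL than in WT CL (21.6% of all tested genes), and 5 were lower in ERRαγAd-/- PBS than in WT PBS (18.4%). On the deposited scale the counts were 3 lower and 0 higher under agonist (6.62% and 70.5% of all tested genes) and 2 lower and 3 higher under vehicle (6.22% and 66.3%). Under agonist, Mcee differed by -1.48 ± 0.14 (limma adjusted p = 4.57e-06) and Pcca by -1.39 ± 0.12 (adjusted p = 1.74e-06). Pcca had 66.0, 64.7 and 68.0 RPKM in ERRαγAd-/- CL, against 162, 186 and 177 in WT CL. With the agonist the 7 also rose in WT (18.0% of all tested genes), and 4 rose in ERRαγAd-/- (6.68%). Without the 2 libraries highest in muscle transcripts 6 rose in WT and 0 in ERRαγAd-/-, where 4 had an unadjusted p under 0.05 by limma. On the deposited scale 3 rose in each genotype, beside 7.2% of all tested genes in WT and 3.23% in ERRαγAd-/-.

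Among the enzymes of isoleucine breakdown shared with fatty acid oxidation, Acat1, the last thiolase, was lower in ERRαγAd-/- under agonist (-1.73 ± 0.14, limma adjusted p = 1.22e-06) and under vehicle (-1.49 ± 0.14, adjusted p = 6.44e-06). Echs1, an enoyl-CoA hydratase, was lower too, at -1.14 ± 0.13 and -1.09 ± 0.13. Hsd17b10, also listed here, was lower under vehicle (-0.48, limma adjusted p = 0.0064), but 0.09 and uncalled under agonist. On the deposited scale it was 0.11 and uncalled under vehicle, and 0.81 and called higher under agonist. Its agonist response was also larger in ERRαγAd-/- than in WT on that scale (difference 0.70, limma adjusted p = 0.0149). Acadsb, the dehydrogenase specific to that branch, differed by -0.10 under agonist and -0.04 under vehicle, neither called, though 0.61 and 0.55 and called higher on the deposited scale. In the valine branch Hibch, a hydrolase, was lower at -0.65 and -0.60, both called, but at 0.07 and -0.0060 with neither called on the deposited scale. Aldh6a1, the semialdehyde dehydrogenase that ends the branch, differed by 0.29 and -0.03, neither called, though 1.01 and 0.56 and called higher on the deposited scale. Oxct1, which uses acetoacetate, an end product of leucine breakdown, was lower at -0.98 and -1.57, both called, with -0.27 (uncalled) and -0.98 on the deposited scale.

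Of the 5 transporters tested, 3 were higher and 1 lower in ERRαγAd-/- CL than in WT CL, and 1 was higher and 1 lower in ERRαγAd-/- PBS than in WT PBS, beside the shares of all tested genes given above for the 28. On the deposited scale 5 were higher and 0 lower under agonist and 4 higher and 0 lower under vehicle, where 70.5% and 66.3% of all tested genes were higher. Slc25a44, the mitochondrial carrier of branched-chain amino acids, had 19.2, 22.3 and 21.8 RPKM in ERRαγAd-/- CL and 15.2, 16.3 and 19.8 in ERRαγAd-/- PBS, against 27.0, 31.8 and 26.9 in WT CL and 17.9, 18.0 and 17.8 in WT PBS. It was lower in ERRαγAd-/- CL than in WT CL (log2 difference -0.43 ± 0.11, limma adjusted p = 0.00659), but 0.27 and called higher on the deposited scale. Under vehicle the difference was -0.08 and uncalled, and 0.50 and called higher on the deposited scale. It rose with the agonist in WT (0.65, adjusted p = 0.000883), and its difference of 0.30 in ERRαγAd-/- was not called (adjusted p = 0.0963). Slc43a1, a plasma membrane carrier of large neutral amino acids, had 7.63, 17.0 and 10.4 RPKM in ERRαγAd-/- CL and 13.4, 17.6 and 10.7 in ERRαγAd-/- PBS, against 1.78, 3.18 and 2.05 in WT CL and 2.39, 2.82 and 2.07 in WT PBS. It was higher by 2.06 ± 0.27 under agonist and 2.28 ± 0.27 under vehicle, both called. Slc7a8, another carrier of neutral amino acids, was higher by 1.14 ± 0.24 in ERRαγAd-/- CL than in WT CL (adjusted p = 0.00247) and 0.26 and uncalled under vehicle, where it was 0.76 and called higher on the deposited scale (adjusted p = 0.0154). Of the 5 cofactor genes, 1 was higher and 2 lower in ERRαγAd-/- CL than in WT CL (19.8% and 21.6% of all tested genes). In ERRαγAd-/- PBS 1 was higher and 1 lower than in WT PBS (15.8% and 18.4%). Lias was called lower under both treatments (-0.85 and -0.62) and Lipt1 under agonist (-0.72), none of these called on the deposited scale. On that scale 3 were higher and 0 lower under each treatment, where 70.5% and 66.3% of all tested genes were higher. Hlcs, the ligase that attaches biotin to carboxylases such as Mccc1 and Pcca, was higher in ERRαγAd-/- by 1.5 ± 0.13 under agonist and 0.96 ± 0.13 under vehicle. Klf15, a transcription factor known to regulate amino acid catabolism, was higher by 1.00 ± 0.14 and 0.86 ± 0.14, and the 4 differences of Hlcs and Klf15 were called. None of the 28 genes was called for a difference between the genotypes' agonist responses, with 12 at an unadjusted p under 0.05 by limma, 0 called by edgeR, and 2 called (both with a larger response in ERRαγAd-/-) on the deposited scale.

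**Figure D5:**
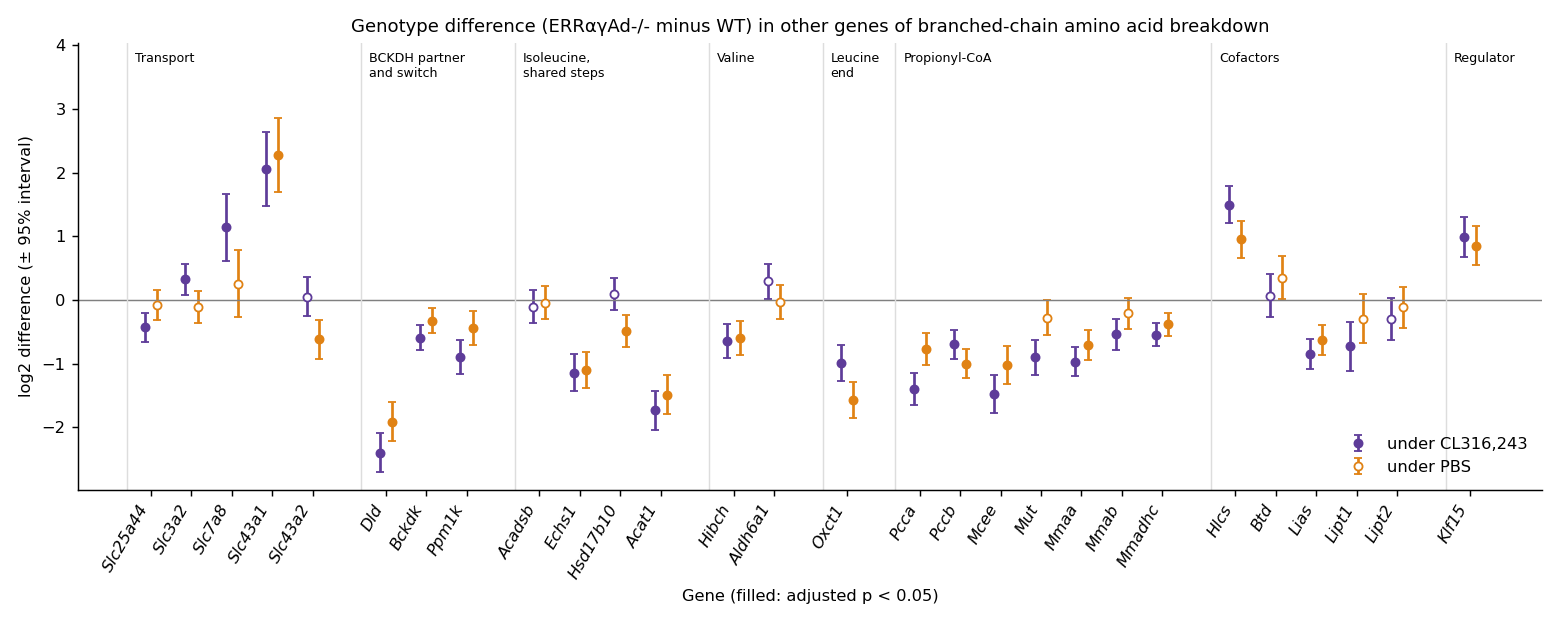
Genotype difference (ERRαγAd-/- minus WT, log2 of scaled RPKM with its 95% interval) of the 28 other tested pathway genes, grouped by role, under CL316,243 and under PBS. Filled points passed the adjusted p threshold of 0.05. Dld is lowest (-2.39 and -1.91), the 7 propionyl-CoA genes all lie below 0, and Slc43a1 is highest (2.06 and 2.28). On the deposited RPKM scale the median of the 28 genes is 0.13 under CL316,243 and 0.24 under PBS.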

How the data were processed

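Total RNA from brown adipose tissue of 12 samples was sequenced after a TruSeq total RNA preparation, per the labels' protocols. Per the submitters' processing notes, the tools were edgeR, STAR 2.3.0, cutadapt and bcl2fastq 2.16.0.10, and 2 mouse builds, mm10 and mm9, are named without their roles. Which counter and annotation were used, and whether strand was, is not given in the sources used here. The main table, deposited by the authors, gives RPKM for 24452 genes, and 6296 of these are at 0 in all libraries. A second table deposited by the authors holds 12380 genes as a linear signal; 100% of its values were whole multiples of 1 step per library within 0.01, so reads were recovered from it. RPKM was rescaled between libraries by the median of ratios. Genes with a mean deposited RPKM of at least 0.5 were tested with limma 3.58.1 (trended empirical Bayes, in R 4.3.3) on log2(scaled RPKM + 0.5), which understates the change of low genes, in a single fit of 4 group means over all 12 libraries with 8 residual degrees of freedom. Benjamini-Hochberg adjustment was done over all tested genes, separately for 5 comparisons, the fifth being the difference between the genotypes' agonist responses. edgeR 4.0.16 was run on the recovered reads. Alternatives were the deposited scale, quantile normalization, pseudocounts of 0.1 and 1, a filter at a mean RPKM of 2 or none, only the groups compared, a replicate block, muscle level as a covariate, and libraries left out. The fit was tested on simulated data. No pair of libraries held identical values. The named genes were all 10 members, Bckdk, Ppm1k, Dld, Slc25a44, Esrra and Esrrg always, up to 4 genes per pathway list by the smallest p in a comparison, and the 5 genes whose profile over the 12 libraries was most like that of the members; Acadsb, Aldh6a1 and others of short lists come in by this rule. Of the listed genes, 1 is not reported here. The members, gene lists and tests were chosen with earlier results of these data known. Gene coordinates come from GENCODE M21 on GRCm38 and promoter sequences from RefSeq on GRCm38.p6, not from the files.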

Additional observations from a re-analysis of the deposited data

Results flagged for a closer look

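The response to the agonist differed between the genotypes for 4 of the 10 members by the test of that difference, beside 3.9% of all tested genes. For Dbt, the core transacylase of BCKDH, the difference (response in ERRαγAd-/- minus response in WT) was -0.87. For Mccc1, a subunit of the leucine carboxylase, it was -0.92, and for Acad8, the valine dehydrogenase, it was -0.54. For Auh, the leucine hydratase, it was 0.77. With each of the 12 libraries left out in turn, the calls of Dbt and Auh stayed. The call of Mccc1 was lost in 7 of these fits and that of Acad8 in 11. Acad8 was also uncalled on the deposited scale, with quantile normalization, with a replicate block and with muscle level as a covariate. Mccc1 was also uncalled without a filter on low values. The direction was the same for all 4 in the fit without the 2 libraries highest in muscle transcripts, where the differences were -0.90, -1.01, -0.57 and 0.78, and only the call of Dbt remained.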

How the results depend on the processing

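Of 540 member differences under alternatives other than single libraries left out, 476 kept their direction and side of the threshold, 40 lost their call, 13 gained one and 11 changed direction; of 600 with a library left out, 545 kept both. On the deposited scale ERRαγAd-/- PBS against WT PBS had 6 members higher and 2 lower, a median of 0.39 and 8877 genes called; ERRαγAd-/- CL against WT CL had 3 higher and 3 lower, 0.11 and 9451; the WT response had 1 lower (Auh) and a median of 0.55; the ERRαγAd-/- response had 2068 genes called and a median of 0.41. Directions that turned on that scale were Bckdhb 0.40 and Dbt 0.39 under vehicle, and Bckdhb 0.24, Ivd 0.39, Mccc1 0.13, Mccc2 0.64 and Hibadh 0.086 under agonist. Quantile normalization gave 3 members higher and a median of -0.030 under vehicle, 1 higher, 4 lower and -0.19 under agonist, and 1 lower with a median of 0.65 for the WT response, and turned Bckdhb under vehicle (0.0022) and Ivd (0.066) and Mccc2 (0.22) under agonist. With muscle level as a covariate 1 member was higher under vehicle (Mccc1) and 1 under agonist (Bcat2), and Mccc2 under agonist was 0.016. The covariate fit also ended the calls under agonist of Bckdhb (-0.47, limma adjusted p = 0.0551) and Ivd (-0.22, limma adjusted p = 0.191). It ended the call of Acad8 in the difference between responses too (-0.54, limma adjusted p = 0.0517). Without ERRαγAd-/- PBS replicate 3 and ERRαγAd-/- CL replicate 3 together, 2 members rose in ERRαγAd-/- (460 genes called), and the responses differed for 0 members upward and 1 downward (217 genes called). With single libraries left out, members higher ranged from 0 to 2 under vehicle, from 0 to 1 under agonist and from 4 to 9 for the ERRαγAd-/- response (522 to 1664 genes called); members with a smaller ERRαγAd-/- response ranged from 1 to 4 (224 to 826 genes called for either direction). Under vehicle, Bcat2 ranged from -0.052 to 0.12 and Ivd from -0.037 to 0.15, both lowest and below 0 without ERRαγAd-/- PBS replicate 2. The cause of these changes was not tested. Every member had at least 753 reads in each library. Depth was greater in every ERRαγAd-/- library than in every WT library, and its part was not tested.

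Replicate numbers shared by groups were not used to pair the samples in the main fit. Same-numbered libraries had deviations correlated between -0.22 and 0.37 over genes. Per comparison 0 to 4 of 6 libraries were closest to their own number, with 4 for ERRαγAd-/- CL against WT CL. With 3 libraries per group these values cannot decide whether the numbers pair the samples. A fit with the replicate number as a block called 4070 genes for ERRαγAd-/- PBS against WT PBS (4189 without it), 4920 for ERRαγAd-/- CL against WT CL (5078), 3522 for the WT response (3737), 1079 for the ERRαγAd-/- response (1261) and 371 for the difference between responses (478). Among members it ended 4 calls: Ivd under agonist (adjusted p = 0.0529), Dbt and Ivd in the ERRαγAd-/- response (0.0584 and 0.0573) and Acad8 in the difference between responses (0.0649).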

Other observations

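The 5 tested genes outside the list whose levels were most like the mean profile of the 10 members over the 12 libraries were Cpt2, Iba57, Poln, C030006K11Rik and Eci2, with Pearson's r of 0.992, 0.988, 0.987, 0.987 and 0.986. These are descriptions: the points share 4 groups, so the coefficients mostly follow the group means, and genes from the same libraries are not independent. Cpt2, the inner-membrane carnitine palmitoyltransferase of fatty acid import, averaged 123 RPKM in ERRαγAd-/- CL and 59.2 in ERRαγAd-/- PBS, against 252 in WT CL and 88.8 in WT PBS. Eci2, an enoyl-CoA isomerase of fatty acid oxidation, averaged 69.8 and 48.7 RPKM in the same ERRαγAd-/- groups, against 115 and 63.9 in the WT groups.

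Among the members, each gene's profile was set against the mean of the other 9 by the same measure. Bckdha (0.972), Dbt (0.956), Hibadh (0.952) and Bckdhb (0.937) lay closest to the others, followed by Ivd (0.886), Acad8 (0.839) and Mccc1 (0.820). Mccc2 (0.629), Auh (0.502) and Bcat2 (0.487) lay farthest. Bcat2 and Mccc2 are also the 2 members not called between the genotypes under agonist, and Auh the member not called for the agonist in WT.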
